A study of Mus musculus with 4 samples.

Results

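Axon guidance genes were described in the open chromatin of early mouse limb buds. The genes were the ephrins and Eph receptors, the semaphorins with their plexin and neuropilin receptors, the Slits and Robos, and the Unc5 receptors. They were chosen by symbol alone, which gave 61 of the 21281 protein-coding gene symbols on the mouse autosomes, in 8 families. The X-linked members, 3 in number, were left out. An accessible region was assigned to one of these genes if its midpoint was no more than 2.5 kb from a start of that gene, or if the nearest start of any protein-coding gene belonged to it. By this rule 492 of the 41797 autosomal regions at E9.5 and 572 of the 45648 at E10.5 were theirs. Assignment to the nearest start does not show which gene a region acts on.

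Chromatin accessibility was measured by ATAC-seq, an assay in which a transposase cuts exposed DNA, in forelimb buds of wild-type NMRI embryos at E9.5 and E10.5. Each stage had 2 replicates, each made from a pair of forelimb buds, and the authors merged them into 1 list of regions per stage. The early samples carry the label e9.5, while their protocol names a slightly later age. They kept the trunk next to the buds and the E10.5 samples did not, so that stage and trunk cannot be told apart in anything below. For E10.5 a tissue label adds hindlimb buds, although the source label and protocol name forelimbs alone. Because no values per replicate enter, no difference between stages has a replicate error or a test. Shares carry 95% Wilson intervals, which cover counting error only and treat neighbouring regions as independent.

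Axon guidance molecules steer growing nerve processes, blood vessels and migrating cells by attraction or repulsion on contact or at a distance. Ephrins are membrane-bound ligands of the Eph receptor tyrosine kinases. Semaphorins act through plexins, with neuropilins as co-receptors for most class 3 semaphorins. Slits are secreted repellents read by Robo receptors, and Unc5 receptors transmit the repulsive response to netrins. In the limb bud these systems are known for sorting mesenchymal cells, guiding motor and sensory axons and patterning vessels.

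The strongest regions that only one stage held are shown first, because the base composition of their DNA recurs in the results below. A stage-specific region overlapped none of the regions listed for the other stage, and a shared one overlapped at least 1 bp. Each line gives 200 bases around the centre of a region, which need not be its summit, on the plus strand of mm9. Capitals mark matches, on either strand, to the short motifs searched. In these windows they were GGGCGG, the GC box bound by SP factors near many promoters. The E-box searched, a motif of basic helix-loop-helix factors, was CAGATG. For GATA factors the letters were AGATAA, as found in many enhancers. For TEAD factors, which carry Hippo signalling, they were ACATTCC. For HOX factors, which pattern the limb, TTTATGG was used. The regions at E9.5 are the first set. They lie in introns of Sema3f, Epha4 and Slit1, and outside genes 150 kb from Efnb2.
Sema3f, chr9:107601023-107601222: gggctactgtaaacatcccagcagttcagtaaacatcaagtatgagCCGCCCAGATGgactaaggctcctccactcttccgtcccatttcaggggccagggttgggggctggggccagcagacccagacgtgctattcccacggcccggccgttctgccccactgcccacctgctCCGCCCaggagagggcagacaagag
Efnb2, chr8:8488814-8489013: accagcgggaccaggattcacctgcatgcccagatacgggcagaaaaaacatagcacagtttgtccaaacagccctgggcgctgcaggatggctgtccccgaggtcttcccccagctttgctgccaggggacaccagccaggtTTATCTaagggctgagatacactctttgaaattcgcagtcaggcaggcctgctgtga
Epha4, chr1:77499386-77499585: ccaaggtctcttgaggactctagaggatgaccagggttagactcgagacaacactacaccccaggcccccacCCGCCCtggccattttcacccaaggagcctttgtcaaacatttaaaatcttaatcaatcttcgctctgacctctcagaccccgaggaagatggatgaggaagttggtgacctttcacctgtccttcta
Slit1, chr19:41745057-41745256: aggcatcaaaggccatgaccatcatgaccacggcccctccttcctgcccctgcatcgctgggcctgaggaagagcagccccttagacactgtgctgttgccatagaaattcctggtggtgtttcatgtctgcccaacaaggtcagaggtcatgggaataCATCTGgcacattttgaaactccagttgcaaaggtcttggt

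The strongest E10.5-specific regions lay outside genes near Robo2, Slit2 and Epha5, at 450, 660 and 218 kb from the nearest start, and in an intron of Robo1.
Robo2, chr16:73450267-73450466: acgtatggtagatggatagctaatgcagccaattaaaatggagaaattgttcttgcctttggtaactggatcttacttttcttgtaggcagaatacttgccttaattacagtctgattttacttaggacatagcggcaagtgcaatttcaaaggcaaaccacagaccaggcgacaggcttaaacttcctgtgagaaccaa
Slit2, chr5:47714146-47714345: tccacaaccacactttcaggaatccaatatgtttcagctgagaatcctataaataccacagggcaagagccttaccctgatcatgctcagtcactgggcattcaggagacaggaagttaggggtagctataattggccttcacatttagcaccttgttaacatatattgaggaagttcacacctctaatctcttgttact
Robo1, chr16:72686483-72686682: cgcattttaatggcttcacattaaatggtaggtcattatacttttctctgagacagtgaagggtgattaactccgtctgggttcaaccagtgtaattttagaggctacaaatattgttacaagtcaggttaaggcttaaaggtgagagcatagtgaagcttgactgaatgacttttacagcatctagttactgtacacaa
Epha5, chr5:85064705-85064904: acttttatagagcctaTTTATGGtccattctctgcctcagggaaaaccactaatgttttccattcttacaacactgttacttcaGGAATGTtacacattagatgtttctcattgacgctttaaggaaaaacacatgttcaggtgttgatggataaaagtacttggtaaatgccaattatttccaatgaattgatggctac

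The early windows were the richer in G and C. GC content was 62.0% in the Sema3f window, 56.5% near Efnb2, 51.0% in Epha4 and 53.0% in Slit1. In the late windows it was 40.5% near Robo2, 42.5% near Slit2, 38.0% in Robo1 and 35.5% near Epha5. The early and late windows shown did not overlap in this measure, but the stage-specific distal regions as a whole did. At the guidance genes their GC quartiles, in a wider window, were 44.3 and 53.3% at E9.5 (193 regions). At E10.5 they were 39.0 and 46.3% (285 regions). Over all autosomal genes such regions had medians of 51.0% at E9.5 and 44.0% at E10.5, so the shift was not restricted to the guidance genes. Scores are 10 times the negative log10 of the best p-value of the peak caller. Those of the regions printed above were 1266.46, 1134.3, 1068.71 and 868.5 at E9.5 in the order shown. At E10.5 they were 1449.15, 1403.14, 1194.96 and 1142.35. A score grows with sequencing depth, which is unknown here, so that levels were compared between stages as percentiles within each list.

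Most of these genes had an open promoter at both stages. A region within 2.5 kb of a start was present in both lists for 58 of the 61 genes, against 62.1% of all autosomal protein-coding genes. Epha8 and Sema3b had one at E9.5 only, a state that 3.85% of all genes shared. None was open at E10.5 only, which allows a share of up to 4.92%, and 1.07% of all genes were. Robo4, the endothelial member of the Robo family, had no promoter region at either stage, like 32.9% of all genes. The promoter of Epha8 scored 127.39 and that of Sema3b 101.07, at percentiles 20.1 and 7.1 of the E9.5 list, so that both were weak where they were open. At Epha8 all 3 regions were E9.5-specific and none was assigned at E10.5.

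Away from promoters the genes held many regions, and many of these were not shared. At E9.5, 211 of 492 regions were stage-specific (42.9%, 38.6 to 47.3%), against 30.1% of all autosomal regions. At E10.5, 289 of 572 were (50.5%, 46.4 to 54.6%), against 35.0%. The intervals of promoter-proximal regions included the values of the genome, with 18 of 92 specific at E9.5 (19.6%, 12.7 to 28.8%; all regions 13.4%) and 4 of 81 at E10.5 (4.94%, 1.94 to 12%; all regions 5.20%). Among distal regions the specific share was 193 of 400 at E9.5 (48.2%, 43.4 to 53.1%; all regions 40.4%) and 285 of 491 at E10.5 (58.0%, 53.6 to 62.3%; all regions 49.4%). Part of the distance from the genome went with the kind of region. When all autosomal regions were weighted to the same class, score decile and GC class as those of the guidance genes, a comparison added once the values were known, 35.5% were specific at E9.5 and 49.0% at E10.5. Against like regions, the share of the guidance genes was thus higher at E9.5, with the whole interval above, and close to equal at E10.5. Promoter-proximal regions made up 18.7% of their regions at E9.5 (15.5 to 22.4%) and 14.2% at E10.5 (11.5 to 17.3%), against 37.9% and 32.6% of all. The excess of the late over the early share depended on which starts were counted. When regions were assigned to the nearest start of any gene type, 352 early and 351 late regions remained, of which 43.5% and 42.7% were specific. Both shares stayed above the 30.1% and 35.0% of all autosomal regions.

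**Figure D1:**
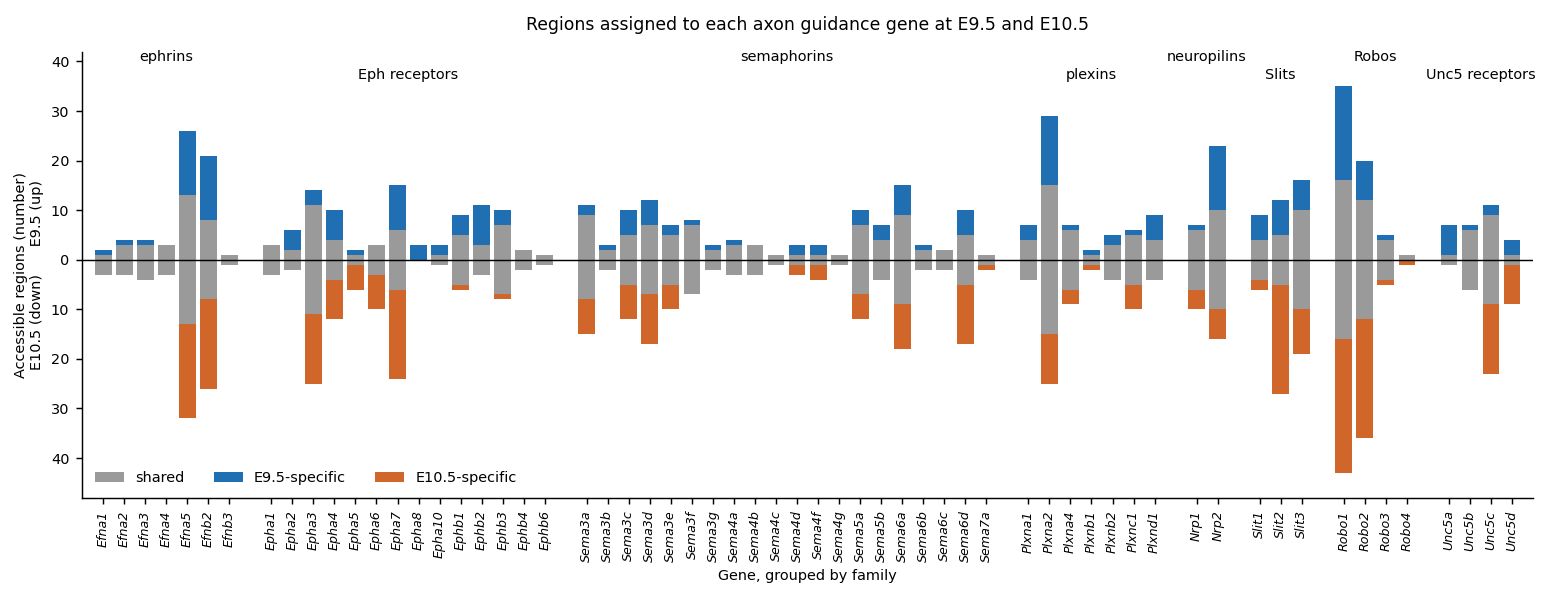
Number of accessible regions assigned to each of the 61 genes, E9.5 upwards and E10.5 downwards, with shared regions in gray and stage-specific ones in color. Robo1 has most, 35 and 43, while the bars of Slit2 and Robo2 are longer at E10.5 and those of Ephb2 and Unc5a at E9.5.

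Regions were spread unevenly among the genes. The median gene had 7 early and 5 late regions, against 1 at each stage over all autosomal genes. Their territories, the bases whose nearest start is the gene's, had a median of 169 kb against 44.6 kb for all genes. Per Mb of territory the guidance genes held 16.9 early and 19.7 late regions, beside 16.9 and 18.5 over all genes. Larger territories held more regions, with a Spearman's rho of 0.84 across the 61 genes, which share libraries and are not replicates. E9.5-specific regions outnumbered E10.5-specific ones at 23 genes, and the reverse held at 26. The remaining 12 genes were equal, 9 of them with no specific region at all. Late-specific regions were also the more numerous over all autosomes, at 15961 against 12589 early-specific ones. The direction of all autosomal genes is not counted here, so these gene counts do not set the guidance genes apart.

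The ephrins split by size of locus. Efna5, a GPI-anchored ligand of the EphA receptors, had 26 regions at E9.5, 13 of them specific, and 32 at E10.5, 19 of them specific. Efnb2, a transmembrane ligand of the EphB receptors that marks arterial endothelium, had 21 and 26 regions, of which 13 and 18 were specific. Both kept promoters at the upper limit of the score, 3100 or more, at both stages. They therefore combined promoters open at both stages with distal regions of which 50% or more were specific at each stage. The 5 other ephrins, Efna1, Efna2, Efna3, Efna4 and Efnb3, had 1 to 4 regions each, and no E10.5-specific one. In the family as a whole 29 of 61 regions were specific at E9.5 (47.5%, 35.5 to 59.8%; like regions 35.0%) and 37 of 72 at E10.5 (51.4%, 40.1 to 62.6%; like regions 50.6%). With starts of all gene types the shares were 46.3% early and 35.9% late, which turned their order.

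Promoters of the small A-type ephrins ranked lower at E10.5. The best promoter region of Efna1 scored 953.95 at E9.5 and 175.46 at E10.5, which moved it from percentile 78.9 to 37.3. At Efna2 the percentile was 67.4 and then 35.4, and at Efna3 83.5 and then 57.7. Efna4, which neighbors Efna1 and Efna3 on chromosome 3, ranked at 79.1 at both stages. Within the Efna5 locus shared distal regions went in both directions. The region at chr17:63494419-63496232 scored 641.41 at E9.5 and its partner 102.32 at E10.5, from percentile 71.3 to 9.1, the largest drop in rank among all shared regions of the guidance genes. The region at chr17:63329299-63330489 went from 474.7 to 92.8, or from percentile 65.4 to 5.7. In an Efna5 intron, at chr17:63049705-63052398, the score was 1541.39 at E10.5 where the best E9.5 partner had 150.76, at percentiles 93.0 and 28.7. The highest-scoring E9.5-specific region near Efnb2 is the one printed above, at chr8:8487149-8490679 and 3531 bp wide.

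Among the Eph receptors, EphA genes with large territories differed in direction from Ephb2, Epha2 and Epha8, whose territories are smaller. Epha3 had 14 regions at E9.5 and 25 at E10.5, of which 3 and 14 were specific. Epha7, a receptor of the A class, had 15 and 24 regions, of which 9 and 18 were specific. Epha6 had 0 specific of 3 early regions and 7 of 10 late ones, and Epha5 had 1 of 2 and 5 of 6. Late-specific regions were thus in excess at all 4 of these loci, and at Epha4 by 8 to 6. Ephb2, a receptor for B-class ephrins, had 11 regions at E9.5, 8 of them specific, and 3 at E10.5, none of them specific. Epha2 had 4 specific of 6 early regions and 0 of 2 late ones. Direction did not follow gene length, as Ephb1, 433 kb long with a territory of 284 kb, had 4 specific of 9 early regions and 1 of 6 late ones. Epha8, Ephb2 and Epha2 lie on chromosome 4, as do Epha10 and Epha7, the latter with a late excess. The family counted 43 specific of 92 regions at E9.5 (46.7%, 36.9 to 56.9%; like regions 34.7%) and 54 of 103 at E10.5 (52.4%, 42.9 to 61.8%; like regions 48.3%). With starts of all gene types these shares were 50.9% and 31.6%, in the opposite order.

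Promoters of the Eph receptors stayed near the same rank as a group, at a median percentile of 87.9 and then 87.0 over 13 genes. Epha7 was at the score limit at both stages. Ephb6, which lacks kinase activity, ranked at 97.2 and 98.9. The promoter of Ephb2 scored 1172.18 at E9.5 and 348.74 at E10.5, from percentile 83.0 to 62.1. That of Epha2 scored 351.91 and 136.95, from 58.6 to 25.1, and a distal region 21.6 kb from its start went from 369.0 to 80.72, or from percentile 59.8 to 2.7. At Epha3 shared distal regions moved apart. The region at chr16:63451862-63452808 scored 261.7 and then 1994.74, at percentiles 50.4 and 96.0, whereas the next one, at chr16:63500329-63501997, scored 1398.5 and then 247.59, at 86.5 and 51.1. At Epha4, which in the limb directs motor axons to their dorsal path, an intronic region at chr1:77498804-77500169 reached 1068.71 and was E9.5-specific, while the promoter ranked at 87.9 and 81.9.

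The semaphorins were the family with the smallest early-specific share. Of their regions, 40 of 117 were specific at E9.5 (34.2%, 26.2 to 43.2%; like regions 33.7%) and 61 of 137 at E10.5 (44.5%, 36.5 to 52.9%; like regions 47.6%). Like regions lay within both intervals and close to the shares. The secreted class 3 genes on chromosome 5 had more late- than early-specific regions. The counts were 2 and 7 at Sema3a, 5 and 7 at Sema3c, 5 and 10 at Sema3d, and 2 and 5 at Sema3e. These 4 genes lie on 1 chromosome, and Sema3a encodes the classical repellent of sensory and motor axons. Its promoters ranked higher at E10.5. A start at the upstream end of the gene had a best score of 630.48 at E9.5 and 2622.9 at E10.5, from percentile 71.1 to 98.2, where 1 wide late region at chr5:13124533-13128016 spanned 2 narrower early ones. Its second promoter scored 792.78 and 894.54, at 75.3 and 84.0.

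Class 6 semaphorins also had late excesses at their larger loci, while the class 5 genes went in opposite directions. Sema5a had 3 specific of 10 early regions and 5 of 12 late ones, and Sema5b had 3 of 7 and 0 of 4. Sema6a, a transmembrane semaphorin with the most regions of the family, had 6 specific of 15 early regions and 9 of 18 late ones. Sema6d had 5 of 10 and 12 of 17. Sema3f, the repellent that acts through Nrp2, held the highest-scoring early-specific region of all guidance genes at chr9:107599180-107603067, yet its 7 other regions at E9.5 were shared. Sema3b, its neighbor on chromosome 9, had the weak early promoter given above. Its shared distal region 3.34 kb before the start scored 1571.62 and 892.1, at percentiles 88.7 and 84.0, a small change in rank. In a Sema5a intron a region at chr15:32377094-32378141 scored 105.57 at E9.5, and its partner 1038.76 at E10.5, at percentiles 9.6 and 86.8.

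Several semaphorin promoters ranked far lower at E10.5. The percentile was 65.6 and then 20 at Sema4d, 67.3 and 32.8 at Sema4g, 78.8 and 56.5 at Sema6b, 45.9 and 27.6 at Sema4a, and 73.2 and 55.7 at Sema7a, the GPI-anchored member. At Sema6b the best early region scored 943.25 and its own partner 124.68, and the best late region was another one. The strongest early promoters of the family hardly moved in rank, with 98.8 and then 97.2 at Sema4c and 98.8 and then 97.4 at Sema6a. Both were at the score limit at E9.5, where ranks are tied, and scored 2274.02 and 2355.16 at E10.5. In all, 13 of 19 semaphorin promoters ranked lower at E10.5, at a median percentile of 81.7 and then 79.7. Over all autosomal genes with a promoter region at both stages 59.2% ranked lower, with medians of 84.8 and 83.3.

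Plexins, the signalling receptors of the semaphorins, were the family with the smallest late-specific share. Early-specific were 27 of 65 regions (41.5%, 30.4 to 53.7%; like regions 37.3%), and late-specific 19 of 58 (32.8%, 22.1 to 45.6%; like regions 38.5%). Plxna2 contributed 29 of the 65 and 25 of the 58, and without it 36.1% and 27.3% were specific. Its own specific regions numbered 14 and 10. Plxnd1, the endothelial receptor for Sema3e, had 5 specific of 9 early regions and 0 of 4 late ones. Plxna1 had 3 of 7 and 0 of 4, whereas Plxnc1 had 1 of 6 and 5 of 10. Plexin promoters ranked lower at E10.5 at 6 of 7 genes, Plxna2 being the exception, and their median percentile was 89.5 and then 75.9. Over all autosomal genes 59.2% ranked lower, with medians of 84.8 and 83.3. At Plxna4 the scores were 684.49 and 122.47, from percentile 72.6 to 19.0, which left it the second weakest open promoter of all at the late stage. At Plxnd1 the percentile was 88.7 and then 74.7.

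The neuropilins, co-receptors of class 3 semaphorins and VEGF, went in opposite directions. Nrp2 had 13 specific of 23 early regions and 6 of 16 late ones. Nrp1 had 1 of 7 and 4 of 10. The family share of 46.7% at E9.5 (14 of 30, 30.2 to 63.9%; like regions 36.0%) rested on Nrp2, since 14.3% remained without it, and at E10.5 it was 38.5% (10 of 26, 22.4 to 57.5%; like regions 48.5%). With starts of all gene types 1 of 9 late regions was specific (11.1%). The Nrp2 promoter scored 1317.24 at E9.5 and 590.68 at E10.5, from percentile 85.3 to 75.5. Not all of its shared regions followed, as the one 184 kb beyond the start had 78.33 and then 463.02, at percentiles 1.8 and 69.6. At Nrp1 the promoter ranked at 97.4 and 94.0, and an intronic region at chr8:130920713-130921768 scored 111.28 and then 925.2, at percentiles 12.6 and 84.6.

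**Figure D2:**
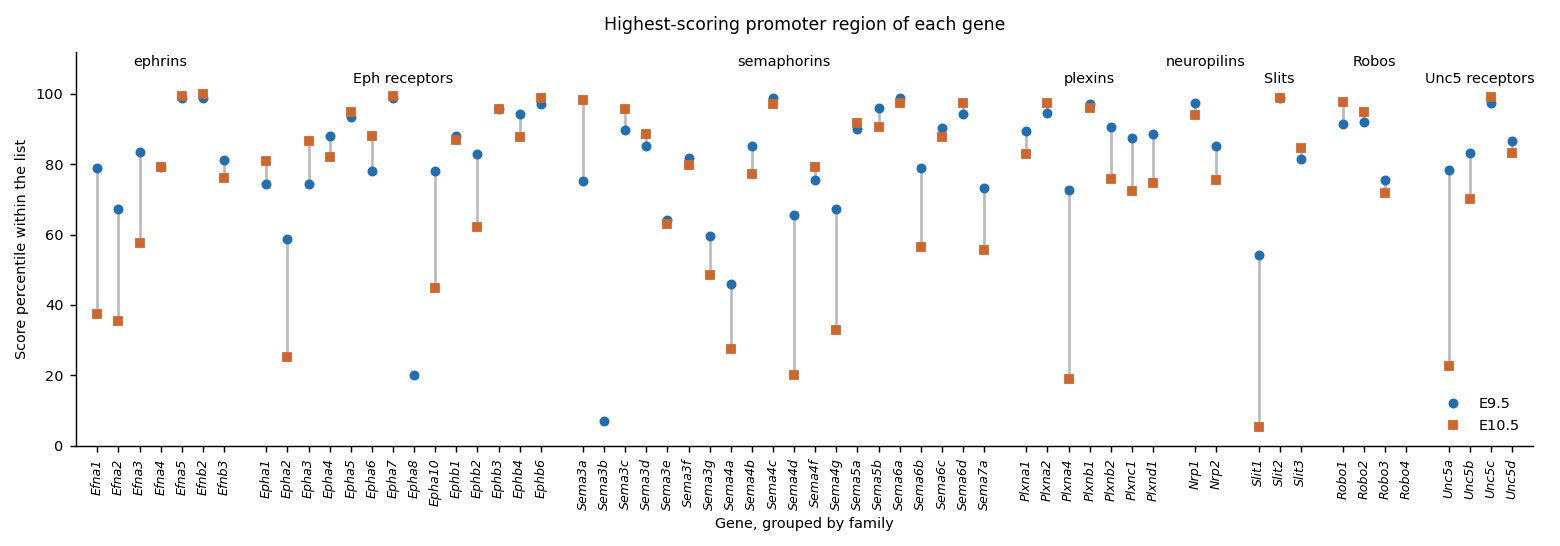
Percentile, within its own list, of the highest-scoring promoter region of each gene at E9.5 (circles) and E10.5 (squares), joined by a gray line. The longest lines run downwards from E9.5 to E10.5, at Unc5a, Plxna4, Slit1 and Sema4d, and Sema3a has the longest line in the other direction.

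Over the 58 genes with a promoter region at both stages, 38 ranked lower at E10.5 and 20 higher, with medians of 85.3 and 82.4. The median change was a drop of 3.0 percentile points in these genes and of 1.4 in the 13221 genes of the genome with such a region, of which 59.2% ranked lower, against 65.5% of the guidance genes. The score limit, where ranks are tied, was reached by 6 guidance promoters at E9.5 and by 3 at E10.5. Shared distal regions more often ranked higher at E10.5. Of 207 such E9.5 regions, 134 had a partner of higher percentile at E10.5 (64.7%; all shared distal regions 58.1%), with a median gain of 9.3 points against 4.0. Percentiles are ranks within a list, so over the genome a fall of promoter regions is matched by a rise of others.

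The Slits had the largest late-specific share, with an interval that overlapped those of most other families. Of their regions, 18 of 37 were specific at E9.5 (48.6%, 33.4 to 64.1%; like regions 37.9%) and 33 of 52 at E10.5 (63.5%, 49.9 to 75.2%; like regions 49.8%). This rested on Slit2, without which the late share was 44.0%. Slit2 had 7 specific of 12 early regions and 22 of 27 late ones. Its main promoter scored 3100 and 2929.92, at percentile 98.8 both times, so that a promoter open at both stages stood beside distal regions that were mostly specific to a stage. Slit2 had 2 promoter-proximal regions at E9.5, 0 of them specific, and 5 at E10.5, 3 of them specific. Upstream of the start, outside genes, 5 distal regions were E9.5-specific and 14 E10.5-specific, with scores of 100.77 to 309.27 and of 106.64 to 1403.14. An intronic region 16.3 kb into the gene was shared and scored 179.67 and then 1163.43, at percentiles 36.7 and 88.8.

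Slit1 and Slit3 differed from Slit2. At Slit1 5 of 9 early regions and 2 of 6 late ones were specific. Its promoter scored 297.74 and 91.72, from percentile 54.2 to 5.3, the weakest open promoter of all at E10.5. The intronic region printed above, at chr19:41744161-41746154, scored 868.5 and was E9.5-specific, and the shared intronic one at chr19:41790258-41791483 scored 1149.77 and then 593.82, at percentiles 82.6 and 75.7. At Slit3 6 of 16 and 9 of 19 regions were specific, and the promoter ranked at 81.6 and 84.6.

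Robo1 and Robo2, the main receptors of the Slits, had large and changing sets of regions. Robo1 had 35 at E9.5 and 43 at E10.5, of which 19 and 27 were specific, and Robo2 had 20 and 36, of which 8 and 24 were specific. They lie next to each other on chromosome 16, and together made up 55 of the 61 early and 79 of the 85 late regions of the family. Early-specific were 28 regions (45.9%, 34.0 to 58.3%; like regions 36.9%) and late-specific 53 (62.4%, 51.7 to 71.9%; like regions 57.2%). Both promoters were open at both stages, at percentiles 91.4 and 97.7 for Robo1 and 91.9 and 94.8 for Robo2. At Robo2 a shared region 384 kb before the start scored 306.64 and then 2042.96, at percentiles 55.1 and 96.2, more than its own promoter with 1778.29. The highest-scoring late-specific region of all guidance genes was assigned to Robo2, at chr16:73449659-73451075, and the fifth highest as well, at chr16:74505642-74507389 with 853.27.

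In an intron of Robo1 an early-specific and a late-specific region stood close together. The E10.5-specific one at chr16:72685666-72687501 scored 1194.96 and had a GC content of 38.0% in the 300 bases around its centre. The E9.5-specific one at chr16:72693274-72694702 scored 761.32, with 51.7%. At the far side of the gene, at chr16:73120680-73121466, a shared region scored 81.12 and then 661.48, at percentiles 2.3 and 78.0. Robo3, which modulates midline crossing, had 1 specific of 5 regions at each stage. Robo4 had 1 shared region at E9.5, inside another gene, and 1 specific region at E10.5, in its own intron.

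The Unc5 receptors divided into 2 genes with late and 2 with early excess. Unc5c had 2 specific of 11 early regions and 14 of 23 late ones, and Unc5d had 3 of 4 and 8 of 9. Unc5a had 6 of 7 at E9.5, and its 1 region at E10.5 was shared. Unc5b, which is prominent in endothelium, had 1 of 7 and 0 of 6. The family counted 12 of 29 (41.4%, 25.5 to 59.3%; like regions 35.0%) and 22 of 39 (56.4%, 41 to 70.7%; like regions 49.4%). The Unc5c promoter scored 2909.43 and 3096.44, and an intronic region 26.1 kb from the start 351.97 and then 1725.89, at percentiles 58.6 and 94.5. Another intronic region, at chr3:141481564-141483194, went the other way, from 1223.6 to 204.48, or from percentile 83.9 to 43.7. The Unc5a promoter scored 920.51 and 130.67, from percentile 78.3 to 22.6, the largest drop when the best promoter region of each gene is compared.

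**Figure D3:**
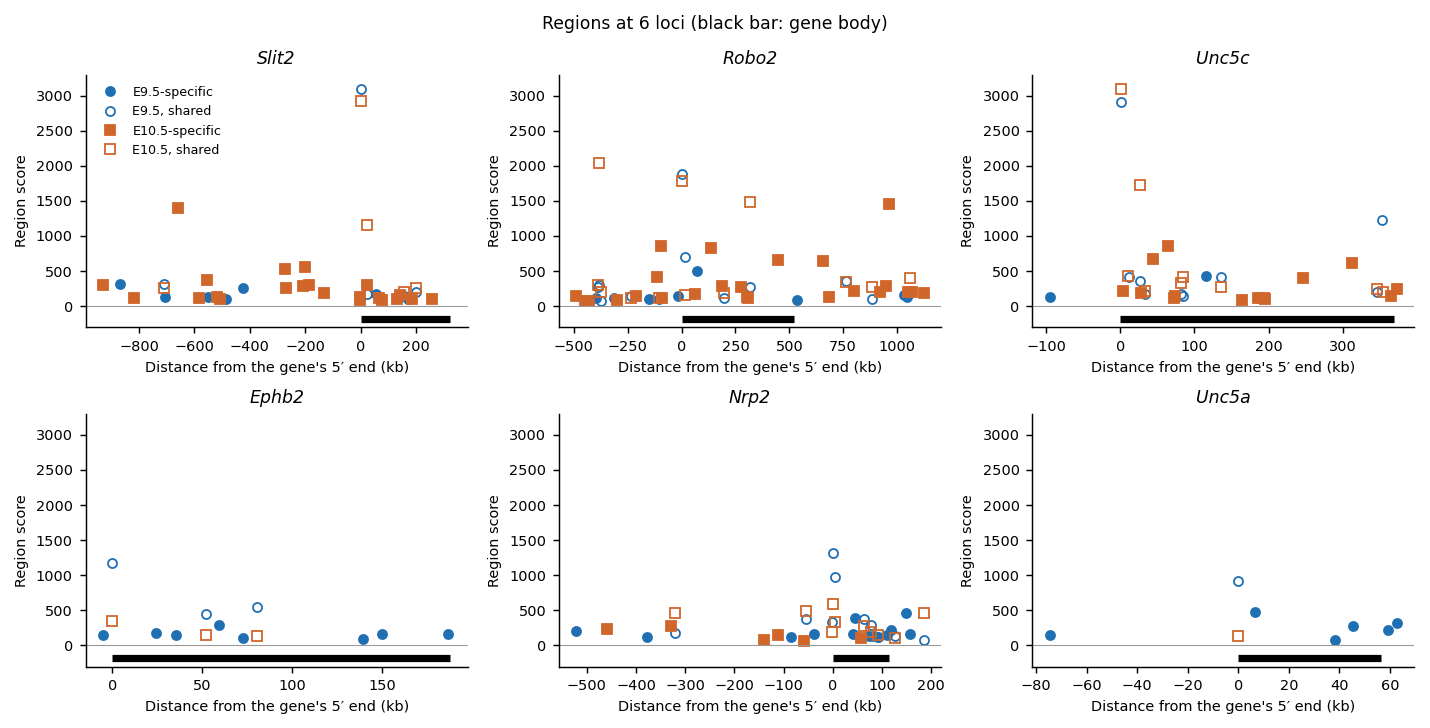
Score of each region against its distance from the 5′ end of the gene in kb at 6 loci, with circles for E9.5, squares for E10.5, filled symbols for stage-specific regions and a black bar for the gene. Filled squares are many at the Slit2, Robo2 and Unc5c loci, where late-specific regions reach 1403.14, 1449.15 and 852.66, whereas filled circles prevail at Ephb2, Nrp2 and Unc5a.

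**Figure D4:**
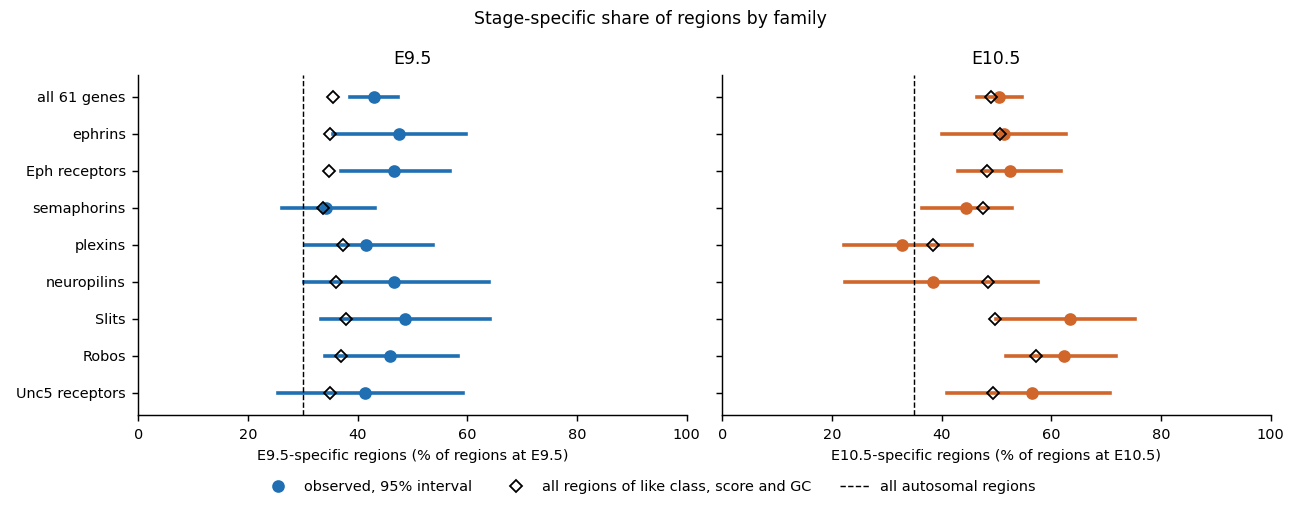
Stage-specific share of the regions of each family in percent, with its 95% Wilson interval (line), the share in all regions of like class, score and GC content (diamond) and the share in all autosomal regions (dashed). At E9.5 the guidance genes stand at 42.9% against 35.5% in like regions, and at E10.5 at 50.5% against 49.0%, with wide intervals for the small families.

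Direction went with base composition. Genes were grouped by the GC content of their territory, with limits chosen after the values were known. In 21 genes with under 42% GC, which include Slit2, Robo1, Robo2, Unc5c, Epha3 to Epha7 and Efna5, late-specific regions were in excess at 18 and early-specific ones at 2, the exceptions being Nrp2 and Plxna2. In 33 genes with over 46%, which include Ephb2, Unc5a, Plxnd1 and Epha2, early-specific regions were in excess at 21 and late-specific ones at 2. The 7 genes between had an early excess at 0 and a late excess at 6. Late-specific regions accordingly made up 61.8% of the E10.5 regions in the GC-poor group and 11.3% in the GC-rich one, while early-specific shares were 46.5% and 41.2%. In the 7 genes between, the late-specific share was 45.6% and the early-specific one 28.3%, lower than in either other group. Across the 61 genes the GC content of the territory and the excess of early- over late-specific regions had a Spearman's rho of 0.72 and a Pearson's r of 0.70. Across the 15880 autosomal genes with a region the rho was 0.46, so that the relation was not restricted to the guidance genes. Territory size went with it as well, at a rho of -0.54, and the part of each was not tested.

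**Figure D5:**
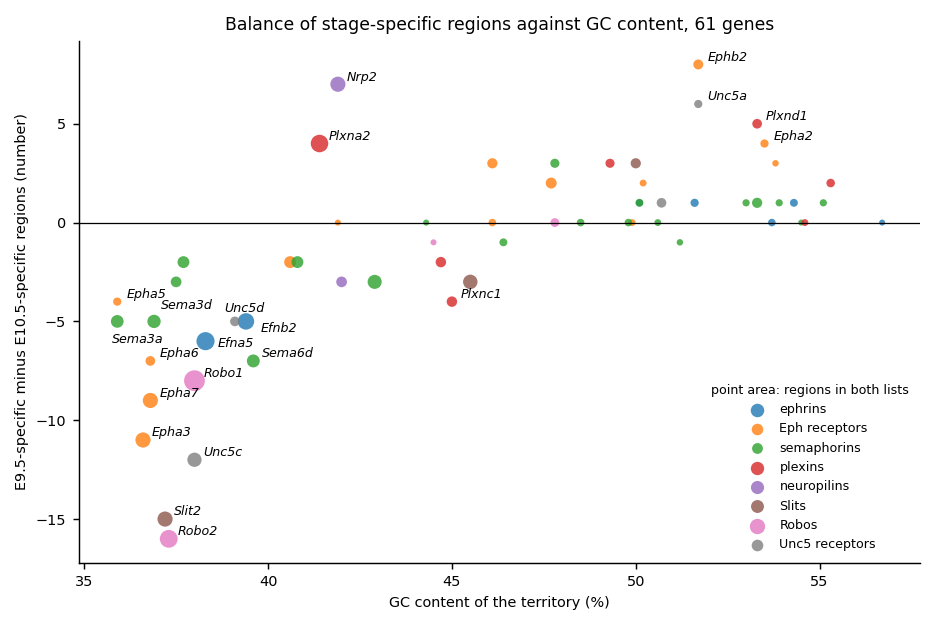
Number of E9.5-specific minus E10.5-specific regions of each gene against the GC content of its territory in percent, with point area for the regions in both lists and color for the family. Slit2 and Robo2 lie at the lower left, Ephb2, Unc5a and Plxnd1 at the upper right, and Nrp2 and Plxna2 stand above the other genes of low GC content.

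The same was seen region by region. Distal regions with under 46% GC in the 300 bases around their centre were late-specific in 72.1% of cases at the guidance genes and in 71.9% over the genome. With over 52.0% GC the values were 14.3% and 18.1%. The guidance genes differed in how many of their distal regions were GC-poor, which was 58.5% at E10.5 against 42.1% of all, and 34.0% against 21.0% at E9.5. Early-specific shares hardly varied with GC and were higher at the guidance genes in each class, with 48.5%, 50% and 46.1% from low to high GC, against 38.5%, 40.9% and 40.8%. In the high-GC class the interval, 37.7 to 54.7%, included the value of the genome. The part of base composition in the stage difference was not tested.

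Distal regions of the guidance genes lay far from starts. The median distance of the specific ones was 71.6 kb at E9.5 and 149 kb at E10.5, beside 30.8 and 64.1 kb over all genes. Introns held 195 of the 400 distal regions at E9.5 and 236 of the 491 at E10.5, and 181 and 236 lay outside genes. Among regions over 500 kb away, 55 of 71 were late-specific (77.5%, 66.5 to 85.6%), and over all genes 78.7% were. Between 2.5 and 20 kb the late-specific share was 42.4% (32.4 to 53.0%), an interval that included the 35.8% over all genes. The early-specific share there was 51.0% (41.4 to 60.5%), against 39.9%.

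Of 12 short motifs counted in the 300 bases around the centre of distal regions, most were about as frequent at the guidance genes as elsewhere. The GC box was rarer, in 8.50% of their distal regions at E9.5 (6.15 to 11.6%; all 14.9%) and in 4.68% at E10.5 (3.14 to 6.93%; all 10.3%). The HOX motif was in 9.37% at E10.5 (7.10 to 12.3%; all 6.56%) and in 5.25% at E9.5 (all 4.40%). The GATA motif was in 15.7% at E10.5 (12.7 to 19.2%; all 12.2%) and 16.5% at E9.5 (all 13.8%). A TCF motif (CTTTGATC) was in 17 of 491 late regions (3.46%, 2.17 to 5.47%; all 1.77%) and in 8 of 400 early ones (2%, 1.02 to 3.9%; all 1.58%). The TEAD motif was in 8.35% at E10.5 (6.21 to 11.1%; all 6.13%) and in 6.25% at E9.5 (all 6.12%). The E-box was in 32.2% and 34.0%, beside 29.6% and 31.5% of all, and the AP-1 motif (TGANTCA) in 7.75% and 8.96%, beside 8.83% and 9.12%. The GLI motif (GACCACCCA) was in 0 of 400 and 0 of 491, which allows up to 0.750% and 0.611%, where all distal regions had 0.455% and 0.361%. The SMAD motif (GTCTAGAC), ETS (CCGGAAGT), CRE (TGACGTCA) and PBX-MEIS (TGATTGACA) motifs were in at most 2 regions at either stage, and in 0.315 to 0.540% of all distal regions, so that counts this low do not set the guidance genes apart. The guidance genes' distal regions were also poorer in GC, as given above, and its part in these shares was not tested. A match is a run of letters and not a bound site.

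Other genes of the guidance pathway, 71 matched symbols that include netrins, their receptor Dcc and the cytoplasmic effectors, were counted beside them. Of their regions 125 of 328 were specific at E9.5 (38.1%, 33.0 to 43.5%) and 122 of 332 at E10.5 (36.7%, 31.7 to 42.1%), against 30.1% and 35.0% of all regions, so that the late share was close to that of the genome. Promoters were open at both stages in 65, at E9.5 only in Ntng2, Rhod, Ngef and Sh3bp1, at E10.5 only in 0, and at neither stage in Arhgef15 and Grip2. Dcc, the attractive netrin receptor, had 6 specific of 11 early regions and 15 of 21 late ones. Ntn1, its ligand, had 7 of 9 and 4 of 6.

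Marker genes of the tissues that the samples could hold were counted in the same way, to be read against the 30.1% and 35.0% of all autosomal regions. Neural tube and neural crest genes, 10 in number, had 34 specific of 68 regions at E9.5 (50%, 38.4 to 61.6%) and 6 of 42 at E10.5 (14.3%, 6.72 to 27.8%). Their promoters were open at both stages in 7, at E9.5 only in Neurog1 and Elavl3, and at neither in Sox10. Limb mesenchyme genes, 8 in number and open at both stages throughout, had 11 of 56 (19.6%, 11.3 to 31.8%) and 39 of 85 (45.9%, 35.7 to 56.4%). Fgf10 gave 15 and Hand2 11 of the late-specific ones. Early-specific regions were the more numerous at 3 of these 8 genes, Tbx5, Lhx2 and Msx1. The 8 somite genes, all open at both stages, had 19 of 53 (35.8%, 24.3 to 49.3%) and 23 of 60 (38.3%, 27.1 to 51.0%), with the values of all regions inside both intervals. The surface ectoderm genes, 6 in number, had 13 of 32 (40.6%, 25.5 to 57.7%) and 7 of 28 (25%, 12.7 to 43.4%). Their promoters were open at both stages in 3, at E9.5 only in Krt18 and Fgf8, and at neither in Trp63. The 5 endothelial and blood genes had 7 of 26 (26.9%, 13.7 to 46.1%) and 11 of 30 (36.7%, 21.9 to 54.5%). Among these last 5, Kdr and Tal1 had promoter regions at both stages, and Tek, Cdh5 and Pecam1 at neither. In tissue of mixed cells fewer cells of a type and less open chromatin per cell cannot be told apart, and the part of the trunk in these differences was not tested.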

How the data were processed

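ATAC-seq was performed by the authors on 2 replicates per stage (E9.5 and E10.5). They aligned reads to mm9 with Bowtie 1.1.0, allowing 2 mismatches and unique positions only, called regions per replicate with MACS 1.4 without a control, and combined replicates with MSPC (stringent p-value 1e-10, weak p-value 1e-06). The deposited score of each region is the authors' best MACS value as 10 times the negative log10 of p, with 3100 as a practical limit. Shifting of reads for the transposase is not given in the sources used here. Read totals were not used, so depth per sample is unknown and limits all comparisons of scores.

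From these lists, regions on the 19 autosomes were annotated with GENCODE vM1 on NCBIM37, whose chromosome lengths equal those of mm9, using 70051 protein-coding transcription starts. Promoter-proximal meant within 2.5 kb of a start, and sharing meant an overlap of 1 bp. Percentiles are mid-ranks within a list. GC content and motifs (both strands; overlaps between motifs counted for each) came from 300 bases around the centre. Neighbours such as Robo1 and Robo2 divide the bases between them. Named genes were those without a promoter region at a stage, with most regions overall or in their family, with the largest excess either way (5 each), with the 5 highest or lowest promoter scores, the 5 highest specific regions or the 5 largest rank changes each way. Other genes were named from the families and lists after their values were seen. The genes, lists and alternatives were chosen with earlier results of these data known. Counting was done in Python 3.11.15 (numpy 2.4.6, pandas 2.3.3) and tested on simulated regions. One gene of the neural marker list is not reported here and was left out of its counts. Sox1 (neural), Draxin (pathway) and Gata1 (endothelium and blood) were not matched to an autosomal protein-coding symbol and were not analysed here. No test was made, as there is 1 list per stage. Alternatives changed the score minimum, the starts, the overlap, the promoter distance and the genes included.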

Additional observations from a re-analysis of the deposited data

How the results depend on the processing

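Of 66 alternative values of the main counts and shares, over 11 settings, 44 stayed within the interval or within 1.5 times of the value reported and 22 moved, and of 128 for the families 20 moved. With a score of at least 120, promoters open at neither stage numbered 2. With the higher-scoring 50% of each list, the genes held 199 and 247 regions, promoter-proximal shares of 35.2% and 22.7%, a late-specific share of 56.7%, 10 promoters open at E9.5 only and 4 at neither stage. The early-specific share was 46.2%, and over all autosomal regions this setting gave 26.4% early and 32.0% late. Family shares moved higher with it at the ephrins (64.0% and 64.3%), the Slits (66.7% and 83.3%) and the plexins (53.1% late). Against the whole other list, that 50% gave specific shares of 25.6% and 36.0%, with 11.2% and 18.2% over all autosomal regions, and 10 of the 16 family shares moved lower, to 16.0 to 42.9%. With the starts of all gene types, the promoter-proximal share was 26.1% early and 23.1% late, with 352 early and 351 late regions, of which 43.5% and 42.7% were specific. The excess of the late over the early list in number and share was thus gone. Late shares moved with it at the Eph receptors (31.6%), ephrins (35.9%) and neuropilins (11.1%). With 1 start per gene the promoter-proximal share at E9.5 was 14.6%, and 2 promoters were open at neither stage. A promoter distance of 1 kb gave 15.3% at E9.5, and 5 kb gave 24.2% and 18.1%, with promoters open at E9.5 only in 1, at E10.5 only in 1 and at neither stage in 0. Fewer regions or starts enter under several of these settings, and otherwise the cause was not tested. Leaving out Robo1, the gene with most regions, moved none of the main values. Leaving out each replicate was not run, because each stage has 1 combined list. No paired analysis was possible because the lists carry no values per replicate. Unknown depth limits what an absent region means, since weak regions near the score minimum may be missed at either stage.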
